A study of Mus musculus with 2 samples.

Results

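Ifitm6 and Rsad2 are 2 of the 479 genes read in this imaging experiment, and were taken as their rows in both count matrices. Their levels were described in 5 sets of segmented cells. A cell, given in the files as 1 barcode, entered a set (a gate) if it held 40 or more gene counts and 1 or more counts of Csf3r, Cd68, Cd3e or Pecam1 with Epcam at 0 or 1, or 3 or more counts of Krt8. The Epcam limit was read as applying to the first 4 gates alike. Neither gene helped to define a gate.

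Interferon signalling starts at cell-surface receptors, runs through receptor-bound kinases to transcription factors, and turns on a large set of antiviral genes through short promoter elements. Rsad2 encodes viperin, a radical S-adenosylmethionine enzyme that makes a chain-terminating nucleotide which stops viral RNA synthesis, and it is among the most strongly interferon-inducible genes in macrophages and neutrophils. Ifitm6 encodes a member of the interferon-induced transmembrane family, small membrane proteins best known for blocking viral entry, and in mice this member is found mainly in myeloid cells.

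The sections came from tumours grown under the skin of C57BL/6 mice, 5 weeks old, after gastric cancer cells kept in culture had been injected with Matrigel into both flanks. One section held an EKP tumour and the other an RKP tumour, both from formalin-fixed, paraffin-embedded material in a single block read on 1 Xenium slide, an instrument that counts transcripts in place with gene-specific probes. The labels do not spell out the letters of the line names, and the series title names a mutation of the small GTPase RHOA and diffuse gastric cancer. Each line is represented by 1 section, so no comparison between the lines has a replicate, and no p-value is given anywhere. Immune and vessel cells in such grafts come from the host mouse.

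The promoters of both genes are shown because the letters that interferon-activated factors are known to bind can be looked for there. Each run is the 250 bases before the annotated start in RefSeq (GRCm38.p6), read 5′ to 3′ on the gene's own strand, which is the minus strand for both. Ifitm6 (chr7:141016893-141017142) shows its match to the GAS core in capitals, and Rsad2 (chr12:26456453-26456702) its match to the ISRE core.
Ifitm6: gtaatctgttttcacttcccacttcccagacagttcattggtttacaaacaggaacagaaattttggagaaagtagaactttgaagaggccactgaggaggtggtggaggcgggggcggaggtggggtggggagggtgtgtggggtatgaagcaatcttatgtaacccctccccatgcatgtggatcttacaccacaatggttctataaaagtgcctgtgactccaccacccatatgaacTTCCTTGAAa
Rsad2: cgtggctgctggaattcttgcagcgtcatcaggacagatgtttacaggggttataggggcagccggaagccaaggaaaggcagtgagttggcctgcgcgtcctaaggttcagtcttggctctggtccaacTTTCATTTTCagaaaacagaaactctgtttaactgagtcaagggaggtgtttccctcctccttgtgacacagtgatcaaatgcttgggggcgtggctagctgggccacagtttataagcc

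The ISRE core, the element bound by the complex that type I interferon activates, was searched on both strands as GAAA, any 2 bases and GAAA again. Rsad2 held 1 match, on the other strand, from -120 to -111 relative to the start, and Ifitm6 held none in this window. Of 32851 RefSeq promoter windows of the same length, 2.98% held such a match. The GAS core, an element of promoters that respond to interferon gamma, was searched as TTCNNNGAA, which reads the same on both strands. Ifitm6 held 1 match, from -10 to -2, Rsad2 held none, and 7.02% of all windows held one. The motifs do not overlap each other in these windows. Both genes are protein-coding, Ifitm6 at chr7:141015812-141016892 and Rsad2 at chr12:26442743-26456452 on the same build.

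The EKP section held 261111 barcodes with 31597828 gene counts, and the RKP section 255744 barcodes with 44294494. Barcodes with 40 or more counts made up 62.0% of the EKP section and 91.9% of the RKP section, and their median was 165 counts in both. The 2 sections shared 19 barcode names, none with the same counts. The highest of the 20 negative control probes, which match no transcript, reached 9.84 CPM (counts per 1000000 gene counts) in EKP and 3.66 CPM in RKP. Intervals below are exact 95% intervals (Poisson for a level, binomial for a share, conditional binomial for a ratio) and cover counting error only, not differences between tumours. For levels and ratios they take counts as independent, so the spread between barcodes and between parts of a section is not covered either. Intervals that lie apart are therefore no test of a difference.

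Gate names were checked against listed markers that defined no gate. The Csf3r gate held 4 of 6 neutrophil markers at 2-fold or more over all cells of its section in both sections, with Cxcr2 at 6.95-fold in EKP and 6.58-fold in RKP. It also held 6 of 7 macrophage and monocyte markers at that level, and 50.9% of its EKP and 52.4% of its RKP barcodes carried Cd68 and lay in that gate too. Ly6g, a neutrophil surface protein, went the other way, at 0.328-fold and 0.197-fold in the Csf3r gate and 1.54-fold and 1.49-fold in the Krt8 gate. All 5 T cell markers were at 2-fold or more in the EKP Cd3e gate, and 5 of 6 endothelial markers in the EKP Pecam1 gate. The gates are therefore called by their marker genes. The part of shared barcodes, or of transcripts of a neighbouring cell, in the values below was not tested.

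Both genes were seen in few barcodes but lay far above the control probes. Over the whole EKP section Ifitm6 gave 6492 counts, or 205 CPM (200.5 to 211), and over the RKP section 5596 counts, or 126 CPM (123 to 129.7). Its RKP level was 0.615 times its EKP level (0.593 to 0.637). Rsad2 gave 15545 counts in EKP, or 492 CPM (484 to 499.8), and 23935 in RKP, or 540.4 CPM (534 to 547), a ratio of 1.10 (1.08 to 1.12). In such sums, fewer cells of a type and less RNA per cell cannot be told apart. By summed count Ifitm6 stood at rank 254 of 479 in EKP and 287 in RKP, and Rsad2 at 210 and 198. The median gene of the panel stood at 275 CPM in EKP and 286 CPM in RKP, above Ifitm6 and below Rsad2. Ifitm6 was seen in 2.16% of all EKP and 1.63% of all RKP barcodes, with at most 10 and 16 counts in a barcode. Rsad2 was seen in 3.37% and 3.99%, with at most 73 and 50 counts.

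Ifitm6 was highest in the Csf3r gate of both sections. There it reached 443 CPM in EKP (420.0 to 466) and 327 CPM in RKP (309 to 346). The Cd68 gate followed with 225 CPM in EKP (213 to 236) and 215 CPM in RKP (206 to 225). The order below these differed between the sections. In EKP the Cd3e gate at 126 CPM (93.4 to 167) and the Krt8 gate at 125 CPM (119.8 to 131) had overlapping intervals, and the Pecam1 gate was lowest at 96.5 CPM (86.4 to 108). In RKP the Cd3e gate stood at 157 CPM (132 to 185), the Pecam1 gate at 99.8 CPM (88.5 to 112) and the Krt8 gate was lowest at 71.9 CPM (68.7 to 75.2).

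Rsad2 was lowest in the Krt8 gate of both sections. In EKP the Csf3r gate at 676 CPM (648 to 705) and the Cd68 gate at 669 CPM (649 to 689) had overlapping intervals, followed by the Pecam1 gate at 520.1 CPM (496 to 545), the Cd3e gate at 417 CPM (356 to 487) and the Krt8 gate at 254 CPM (247 to 262). In RKP the Csf3r gate stood alone at 1344 CPM (1307 to 1382). The Cd68 gate at 884 CPM (866 to 903) and the Pecam1 gate at 867 CPM (833 to 902) had overlapping intervals there. The Cd3e gate at 311 CPM (276 to 349.9) and the Krt8 gate at 231 CPM (225 to 237) were the low ones. The Pecam1 gate, marked by an adhesion protein of vessel walls, thus came near the Cd68 gate for Rsad2 in RKP, and lay below it in EKP.

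**Figure D1:**
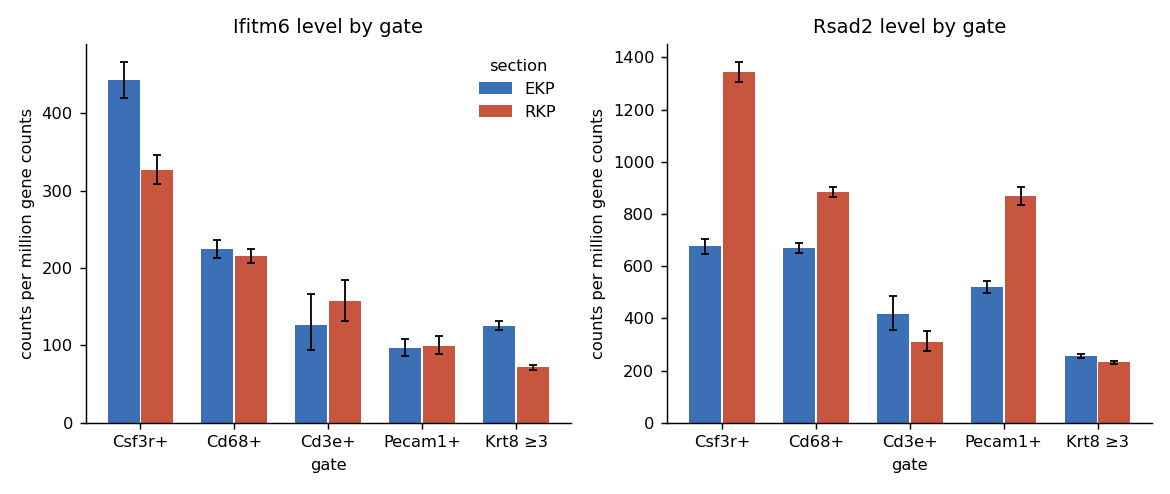
Level of each gene in the 5 gates of the EKP and RKP sections, in counts per 1000000 gene counts on an axis from 0. Bars are summed counts over all barcodes of the gate and error bars are exact 95% Poisson intervals; Ifitm6 is highest in the Csf3r gate of both sections and Rsad2 reaches 1344 CPM in the RKP Csf3r gate.

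Set against the Krt8 gate of the same section, Ifitm6 was 3.54-fold (3.31 to 3.79) in the EKP Csf3r gate and 4.55-fold (4.23 to 4.89) in the RKP one. In the Cd68 gate it was 1.80-fold and 2.99-fold. Of the genes compared, 46.1% in EKP and 39.0% in RKP were at 2-fold or more in the Csf3r gate over the Krt8 gate, and 28.7% and 37.0% in the Cd68 gate, so a value above 2 is common here. Rsad2 was 2.66-fold (2.52 to 2.80) in the EKP Csf3r gate and 5.81-fold (5.60 to 6.04) in the RKP one, and 2.63-fold and 3.83-fold in the Cd68 gate. In the Pecam1 gate Rsad2 was 2.04-fold and 3.75-fold, where 29.0% and 39.7% of genes reached 2-fold. In the Cd3e gate it was 1.64-fold in EKP and 1.35-fold in RKP, where 48.4% and 43.0% of genes reached 2-fold.

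Myeloid gates held a larger share of the counts of both genes than of all gene counts. The EKP Csf3r gate held 10.7% of gene counts, 29.2% of Ifitm6 counts and 18.1% of Rsad2 counts in barcodes with 40 or more counts. The RKP Csf3r gate held 8.43% of gene counts, 22.4% of Ifitm6 and 24.7% of Rsad2. The Cd68 gate of RKP held 21.9% of gene counts, 38.2% of Ifitm6 and 42.1% of Rsad2. The Krt8 gate held more than any other gate of the EKP Ifitm6 counts, 42.5%, being the largest gate with 55.2% of gene counts.

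Between the sections, the 2 genes went different ways in the Csf3r gate. Ifitm6 in RKP was 0.739 times its EKP level there (0.684 to 0.798), and Rsad2 1.99 times (1.89 to 2.09). Neither gene passed 2-fold in any gate. In the Csf3r gate 7.38% of 474 genes reached 2-fold toward RKP and 32.1% toward EKP, and 13.3% and 39.9% reached 1.5-fold, so Rsad2 stood among the 63 genes past 1.5-fold toward RKP. In the Cd68 gate Ifitm6 was at 0.959 (0.896 to 1.03) and Rsad2 at 1.32 (1.27 to 1.37), where 10.3% and 26.6% of genes reached 2-fold toward RKP and EKP, and 17.1% and 39.0% reached 1.5-fold. In the Pecam1 gate Ifitm6 was at 1.03 (0.878 to 1.22) and Rsad2 at 1.67 (1.57 to 1.77), where 11.2% of genes reached 2-fold and 16.7% reached 1.5-fold toward RKP, and 16.7% and 28.5% toward EKP. In the Cd3e gate, with 49 Ifitm6 counts in EKP and 140 in RKP, its ratio was 1.24 (0.890 to 1.76), and that of Rsad2 was 0.745 (0.612 to 0.910). In that gate 10.3% and 24.3% of genes reached 2-fold toward RKP and EKP, and 18.1% and 35.0% reached 1.5-fold. In the Krt8 gate Ifitm6 was at 0.575 (0.540 to 0.612) and Rsad2 at 0.908 (0.873 to 0.945). A difference of the size of Ifitm6 was common there, since 41.7% of genes reached 1.5-fold and 28.1% reached 2-fold toward EKP, against 20.4% and 14.0% toward RKP. Over all barcodes with 40 or more counts Ifitm6 was at 0.759 (0.730 to 0.789) and Rsad2 at 1.15 (1.12 to 1.18), where 14.9% and 25.8% of genes reached 2-fold toward RKP and EKP, and 21.0% and 37.5% reached 1.5-fold.

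The median gene of the panel was itself lower in RKP, by -0.27 on the log2 scale in the Csf3r gate, -0.32 in the Cd68 gate, -0.25 in the Cd3e gate, -0.07 in the Pecam1 gate and -0.33 in the Krt8 gate. Relative to that median the Rsad2 log2 difference was 1.26 in the Csf3r gate, 0.72 in the Cd68 gate, 0.81 in the Pecam1 gate and 0.19 in the Krt8 gate, where the sign turned. For Ifitm6 it was -0.17 in the Csf3r gate, 0.26 in the Cd68 gate and -0.47 in the Krt8 gate.

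The sign of the Rsad2 difference in the Cd68 gate depended on the Epcam limit. With the limit kept for the Pecam1 gate alone, the log2 ratio of RKP over EKP for Rsad2 was 0.44 in the Csf3r gate in place of 0.99, and -0.12 in the Cd68 gate in place of 0.40. The barcodes so added, with 2 or more counts of the epithelial adhesion gene Epcam, were 14.2% of the EKP and 29.2% of the RKP Csf3r-positive barcodes. In them Rsad2 stood at 903 CPM in EKP (840.2 to 969) and 435 CPM in RKP (409 to 462). Among Cd68-positive barcodes with 2 or more Epcam counts it stood at 689 CPM in EKP (663 to 716) and 323 CPM in RKP (311 to 335).

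The largest differences in Rsad2 lay within each section. The barcodes of each file were split, in the order in which they are listed, into 10 successive segments of equal size; this order is only a partial stand-in for place, and cell positions were not used here. Over all barcodes with 40 or more counts, Rsad2 stood at 1138 CPM in EKP segment 1 and 715 CPM in segment 2, and between 167 and 297 CPM in the other 8. In RKP it stood at 598, 1628 and 619 CPM in segments 5, 6 and 7, at 349, 322 and 418 CPM in segments 8, 9 and 10, and between 109.8 and 215 CPM in the first 4. The highest segment was 6.81 times the lowest in EKP and 14.8 times in RKP. Ifitm6 ranged from 96.7 to 252 CPM in EKP, 2.61-fold, and from 62.4 to 210.0 CPM in RKP, 3.37-fold.

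The highest segment stood 4.37-fold over the median segment for Rsad2 in EKP and 4.85-fold in RKP, and 1.42-fold and 1.79-fold for Ifitm6. Of genes with at least as many counts as Ifitm6, 5.84% of 257 in EKP and 11.8% of 287 in RKP had a highest segment 3-fold or more over the median, a threshold chosen after the values were seen. By this measure Rsad2 was rank 4 in EKP and rank 16 in RKP, and within the Csf3r gate rank 2 of 204 and rank 2 of 214, where 4.90% and 7.48% of genes were past 3-fold. Within the Krt8 gate it stood 6.91-fold over the median segment in EKP and 2.83-fold in RKP, where 5.71% and 8.10% of genes were past 3-fold. Ifitm6 was rank 159 in EKP and 86 in RKP over all barcodes. In the EKP Krt8 gate it stood 2.92-fold over the median segment, rank 16 of 245, with 298 CPM in segment 10.

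**Figure D2:**
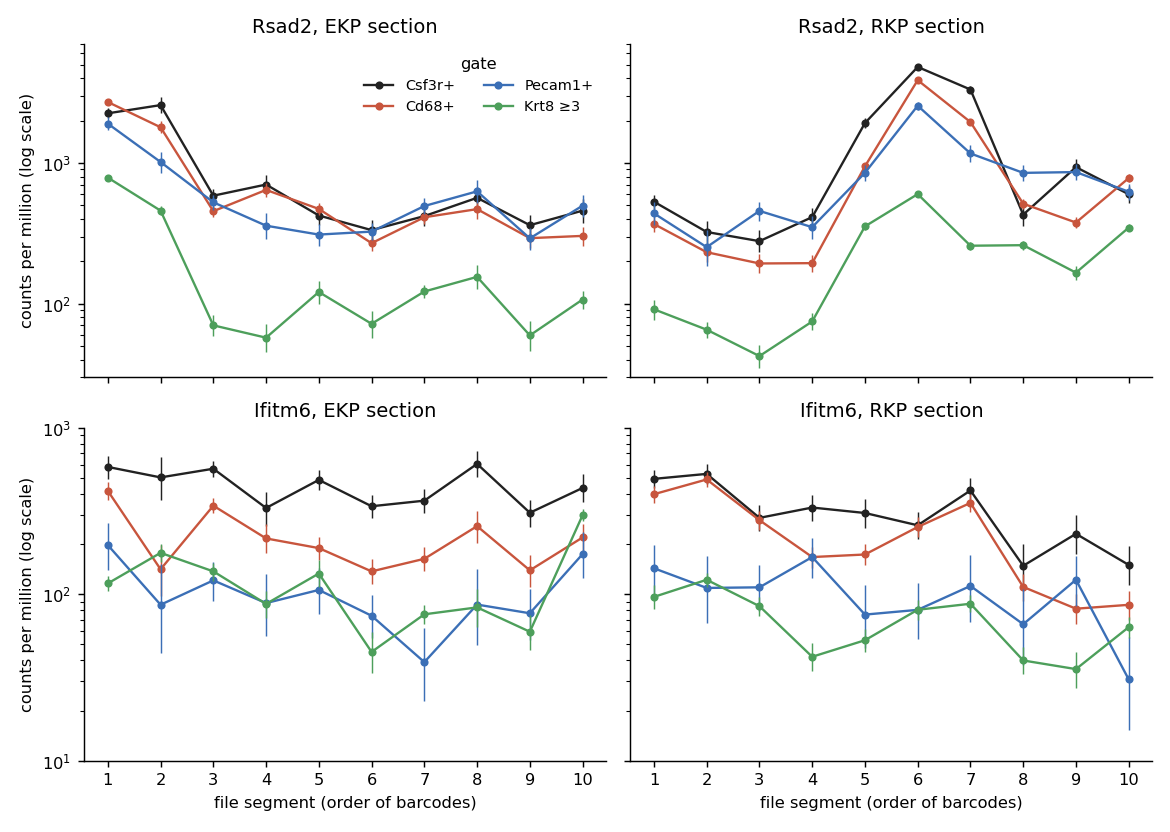
Level of Rsad2 (top) and Ifitm6 (bottom) in 10 successive file segments of each section, in 4 gates, in counts per 1000000 on log axes, with exact 95% Poisson intervals as vertical lines. Rsad2 stands at 1919 CPM or more in the Csf3r gate of EKP segments 1 and 2 and RKP segments 5, 6 and 7. All 4 gates are high for Rsad2 in EKP segment 1 and RKP segment 6. In RKP, Ifitm6 is highest in segment 2 in the Csf3r, Cd68 and Krt8 gates, at 527, 488 and 122 CPM, and in segment 4 in the Pecam1 gate. In EKP its Cd68 and Pecam1 gates are highest in segment 1, its Csf3r gate in segment 8 and its Krt8 gate in segment 10.

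As 1 set, the high Rsad2 segments stood above the others in every gate but the EKP Cd3e gate, though not each of them did. In RKP segment 7 the Krt8 gate stood at 258 CPM, below segments 8 and 10 at 260.3 and 347 CPM, and the Cd3e gate at 187 CPM, below segments 1, 8, 9 and 10. The RKP Pecam1 gate stood at 850.4 CPM in segment 5 and 861 CPM in segment 9. Segments 1 and 2 of EKP and 5 to 7 of RKP were set apart after their Rsad2 values were seen, so the contrast with the other segments is a description. In the EKP Csf3r gate Rsad2 stood at 2332 CPM inside them and 464 CPM outside, and in the RKP Csf3r gate at 3488 and 479 CPM. In the Cd68 gate it stood at 2451 and 403 CPM in EKP and at 2125 and 395 CPM in RKP. Outside these segments the levels of the 2 sections had overlapping intervals in both gates. The log2 ratio of RKP over EKP was then 0.04 (-0.07 to 0.16) in the Csf3r gate and -0.03 (-0.11 to 0.05) in the Cd68 gate, against 0.99 and 0.40 with all barcodes.

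In the Pecam1 gate Rsad2 stood at 1536 CPM inside and 407 outside in EKP, and at 1641 and 553 in RKP, so that the RKP section kept the higher level outside. The Krt8 gate held 674 CPM inside and 95.1 outside in EKP, a ratio of 7.08 (6.62 to 7.59), and 392 and 153 in RKP, a ratio of 2.56 (2.43 to 2.69). Outside the high segments the Krt8 gate was thus higher in RKP, with a log2 ratio of 0.69 (0.59 to 0.79) against -0.14 over all barcodes. The Cd3e gate was the exception in EKP, with 8 counts and 191 CPM inside and 445 CPM outside, and in RKP it stood at 465 and 249 CPM. The share of barcodes in the high segments differed between the gates and sections. They held 3011 of the 24702 EKP and 7905 of the 27995 RKP barcodes of the Csf3r gate.

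Ifitm6 differed less between the same segments, which were chosen on Rsad2. Its ratio of inside to outside was 1.31 (1.13 to 1.52) in the EKP Csf3r gate, 0.967 (0.850 to 1.10) in the RKP one, 1.64 (1.43 to 1.87) in the EKP Cd68 gate and 1.20 (1.09 to 1.31) in the RKP one. Leaving the high Rsad2 segments out gave a log2 ratio of RKP over EKP for Ifitm6 of -0.37 in the Csf3r gate and -0.02 in the Cd68 gate, against -0.44 and -0.06.

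No other panel gene matched Rsad2 in these segments, which were chosen on Rsad2 itself. Its ratio of inside to outside over all barcodes with 40 or more counts was 4.26 in EKP and 4.04 in RKP. In RKP the next gene was Tff2, a mucus-associated trefoil peptide, at 1.83, and 0.226% of 443 genes, that is Rsad2 alone, reached 2-fold. In EKP 2.32% of 475 genes did, next Muc20, a membrane mucin, at 3.54 and Cldn2, a tight junction claudin, at 2.85.

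With 100 segments in place of 10, the EKP segment with most Rsad2 counts was segment 9, with 2043 counts in 2293 barcodes and 4492 CPM, against a median of 266 CPM. In RKP segment 53 held most, with 1822 counts and 3479.9 CPM, and segment 60 had the highest level, with 1756 counts in 1272 barcodes and 10284 CPM, against a median of 203 CPM. The highest EKP level, 6431 CPM in segment 80, lay outside the high segments but rested on 10 counts in 28 barcodes. The 10 of the 100 segments with most counts of a gene held 48.9% of Rsad2 counts in EKP and 56.6% in RKP. For Ifitm6 these shares were 25.9% and 22.7%. Segments differed in size, in EKP from 1555 to 660701 gene counts, so such a share depends in part on how full a segment is. The share of all gene counts in the same segments was not computed. Across the RKP segments the Rsad2 levels of the Csf3r and Cd68 gates correlated at r = 0.89, those of the Csf3r and Pecam1 gates at 0.75 and those of the Csf3r and Krt8 gates at 0.52. In EKP these were 0.74, 0.35 and 0.45. For Ifitm6 the same pairs of gates gave 0.87, 0.38 and 0.53 in RKP and 0.35, 0.22 and 0.23 in EKP. Points of such a correlation share a segment, and gates share barcodes, so these values are descriptions. The 2 genes themselves correlated at 0.49 over the EKP segments and at -0.19 over the RKP segments.

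Rsad2 counts were concentrated in few barcodes. Among barcodes with 40 or more counts, 682 in EKP and 1464 in RKP held 4 or more Rsad2 counts, which was 0.421% and 0.623% of barcodes and 45.1% and 53.6% of Rsad2 counts. In barcodes with 10 or more, Rsad2 made up a median of 6.63% of all the counts of the barcode in EKP and 6.82% in RKP. Ifitm6 reached 4 or more in 56 EKP and 148 RKP barcodes, which held 5.71% and 14.3% of its counts, and 72.9% of its EKP counts were single ones. The threshold of 4 was chosen after the counts were seen.

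**Figure D3:**
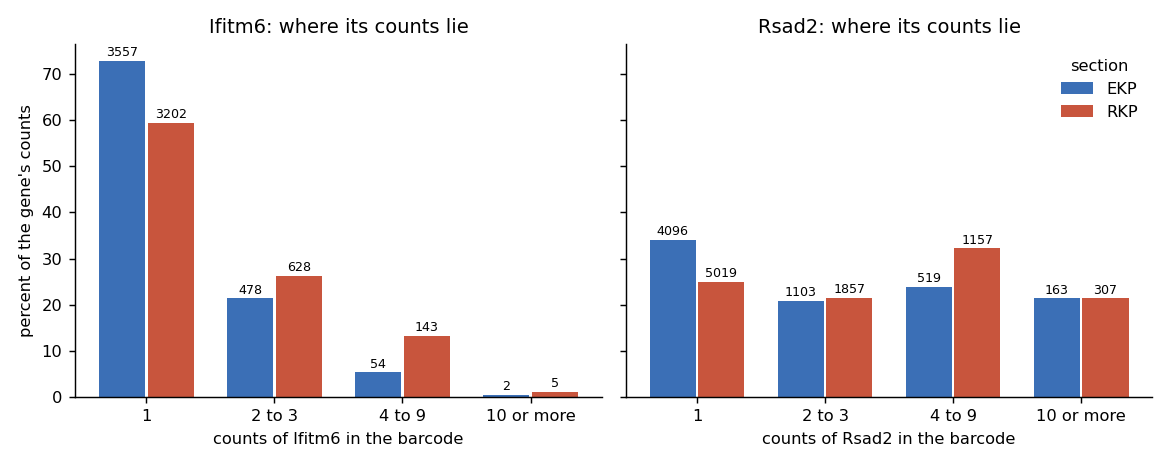
Percent of each gene's counts that lay in barcodes with 1, 2 to 3, 4 to 9, and 10 or more counts of that gene, among barcodes with 40 or more gene counts in each section; the number over each bar is the number of barcodes. Barcodes with 10 or more counts held 21.4% of Rsad2 counts in both sections and 0.410% and 1.09% of Ifitm6 counts.

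These high barcodes followed each other in the file. Of all barcodes with 4 or more Rsad2 counts, whatever their depth, 16.6% in EKP and 24.7% in RKP were directly followed by another, although they made up 0.285% and 0.676% of barcodes. Another lay within 10 barcodes for 57.9% and 82.7% of them, against 3.46% and 5.38% of all barcodes. For Ifitm6, 0 of 56 in EKP, which allows a share of up to 6.38%, and 2 of 148 in RKP were directly followed by another. In RKP that was 1.35%, although such barcodes made up 0.0579% of all. Another lay within 10 barcodes for 12.8% of the high Ifitm6 barcodes in RKP, against 1.08% of all barcodes. In EKP this was 0% against 0.429%.

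High Rsad2 barcodes were not of one gate. In RKP 46.8% carried Cd68 in its gate and 29.7% Csf3r, against 23.9% and 11.9% of all barcodes with 40 or more counts, and 26.4% lay in the Krt8 gate against 48.0% of all. In EKP 33.6% lay in the Cd68 gate against 24.4% and 16.0% in the Csf3r gate against 15.2%. The EKP Krt8 gate held 273 high Rsad2 barcodes, the most of any gate. Of the barcodes of that gate 0.399% were high, against 0.421% of all EKP barcodes with 40 or more counts. The Krt8 gate was thus far below its share of all barcodes in RKP and close to it in EKP. Of the RKP high Ifitm6 barcodes 50.7% lay in the Cd68 gate and 25.7% in the Csf3r gate. Of the 56 EKP ones 42.9% lay in the Krt8 gate against 42.3% of all, and 30.4% in the Csf3r gate against 15.2%. The EKP Cd68 gate held 14 of these 56, close to its share of all barcodes.

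Levels were then set against the number of marker counts in a barcode. Ifitm6 was 281 CPM in EKP barcodes with 1 Csf3r count (257 to 306), 465 with 2, 797 with 3 and 846 with 4 or more (761 to 939). In RKP the same steps gave 253 (232 to 275), 326, 519.5 and 525 CPM (462 to 594). Csf3r is the receptor of the growth factor that drives neutrophil production. With Pecam1 counts the order was the reverse, from 136 to 45.9 CPM in EKP and from 130.3 to 42.6 CPM in RKP between 1 and 4 or more counts. With Cd68 counts, a lysosomal protein of macrophages, Ifitm6 stayed between 204 and 245 CPM in EKP, while in RKP it was 149, 170.4 and 175 CPM with 1, 2 and 3 counts and 410.0 CPM (383 to 438) with 4 or more.

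Rsad2 was higher with 4 or more than with 1 count of Csf3r, Cd68 and Pecam1, and lower with more Cd3e. Between 1 and 4 or more Csf3r counts it went from 583 to 889 CPM in EKP and from 1065 to 2132 CPM in RKP. With Cd68 it went from 502 to 1055 CPM and from 778 to 1026 CPM, and with Pecam1 from 395 to 716 CPM and from 789 to 997 CPM. With Cd3e, a subunit of the T cell receptor complex, it went from 485 (397 to 587) to 244 CPM (139 to 395) in EKP and from 397 (342 to 458) to 195 CPM (133 to 277) in RKP. With Krt8, a keratin of simple epithelia, both genes were lower at the high end. Rsad2 went from 459 CPM with 3 to 5 counts to 191 CPM with 24 or more in EKP and from 349 to 101 CPM in RKP. Ifitm6 went from 123 to 68.0 CPM and from 111 to 34.5 CPM. Depth moved with these steps: the median gene count per EKP barcode was 162 at the low and 406 at the high Krt8 step.

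**Figure D4:**
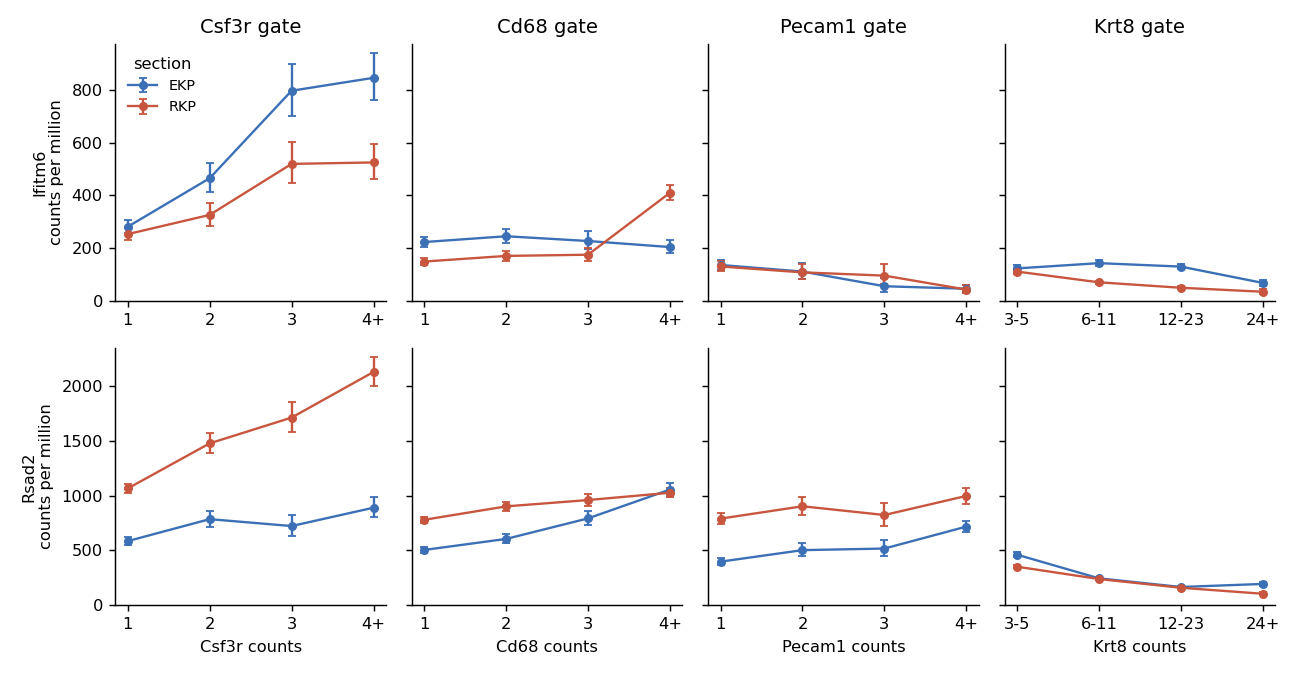
Level of Ifitm6 (top) and Rsad2 (bottom) in counts per 1000000 by the number of marker counts in a barcode, for the Csf3r, Cd68, Pecam1 and Krt8 gates of both sections, with exact 95% Poisson intervals and axes from 0. Ifitm6 reaches 846 CPM with 4 or more Csf3r counts in EKP and lies below 50 CPM with 4 or more Pecam1 counts in both sections; Rsad2 reaches 2132 CPM with 4 or more Csf3r counts in RKP.

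Second markers split the Csf3r gate further for Ifitm6. With Cxcr2, the chemokine receptor that guides neutrophils, Ifitm6 stood at 896 CPM in EKP (833 to 963) and without it at 286 CPM (265 to 308), and in RKP at 463 and 278 CPM. With Stfa2l1, a stefin-type protease inhibitor of neutrophils chosen after the panel was seen, it stood at 1088 CPM in EKP (989 to 1194) and 667 CPM in RKP (560.4 to 787), and without it at 349 and 307 CPM. Csf3r barcodes that lay in no other gate held 629 CPM in EKP (579 to 683) and 351 CPM in RKP (316 to 390.1).

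For Rsad2 the same splits gave another picture. In EKP it stood at 639 CPM with Cxcr2 and 689 CPM without it. In RKP it stood at 1580.0 CPM (1502 to 1661) with Cxcr2 and 1259 CPM (1217 to 1301) without it. With Il1r2, the decoy receptor of interleukin 1, it stood at 1943 CPM in RKP (1873 to 2015) and 944 CPM without it, and in EKP at 663 and 685 CPM. The highest level of any split by a second marker was that of RKP barcodes with Csf3r and Stfa2l1, at 3697 CPM (3441 to 3968), against 905 CPM (815 to 1002) in EKP.

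Within the Cd68 gate Ifitm6 was higher with Retnla, a secreted protein of alternatively activated macrophages, at 873 CPM in EKP (733 to 1031) and 559 CPM in RKP (449 to 687), against 208 and 209 CPM without it. With Mmp8, neutrophil collagenase, it stood at 300.0 CPM in EKP and 616 CPM in RKP, against 219 and 176 CPM without. With Arg1, the arginase of alternatively activated macrophages, it was lower, at 151 CPM with and 299.7 CPM without in EKP and at 206 and 257 CPM in RKP. Rsad2 was higher with Arg1, at 865 CPM with and 467 CPM without in EKP and at 943 and 618 CPM in RKP. With Mmp8 Rsad2 stood at 1568 and 1548 CPM in EKP and RKP, against 605 and 819 CPM without. Barcodes with Cd209a, a lectin of monocyte-derived dendritic cells, and Epcam at 0 or 1 held Ifitm6 at 485 CPM in EKP (433 to 541) and 478 CPM in RKP (427 to 534), close to each other.

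Both genes were also read in T cell and vessel subsets. Cd3e barcodes with Cd8a, a co-receptor of cytotoxic T cells, held 7 Ifitm6 counts in EKP and 10 in RKP, 81.6 CPM (32.8 to 168) and 64.7 CPM (31.0 to 119). Those without Cd8a stood at 139 CPM in EKP (100.1 to 188) and 176 CPM in RKP (147 to 209). The intervals with and without Cd8a overlapped in EKP and lay apart in RKP. Pecam1 barcodes with Prox1, the factor that defines lymphatic endothelium, held 0 Ifitm6 counts in 151 EKP barcodes, which allows up to 123 CPM, and 12 in 1095 RKP barcodes. The EKP limit lies above the 96.5 CPM of the whole Pecam1 gate, so no difference was detectable there. Rsad2 stood at 451 CPM (356 to 564) in the RKP Prox1 barcodes and at 893 CPM (858 to 930.0) in Pecam1 barcodes without Prox1. Pecam1 barcodes that lay in no other gate kept Rsad2 at 515 CPM in EKP (479.8 to 551) and 778 CPM in RKP (728 to 829.7), while Ifitm6 was 47.5 CPM (37.3 to 59.5) and 60.0 CPM (46.8 to 75.6) there.

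The Krt8 gate was split by Epcam and by the other 4 markers. Ifitm6 in EKP was 60.5 CPM with Epcam at 0 or 1 (52.7 to 69.0), 133 CPM with 2 to 9 and 148 CPM with 10 or more (140.4 to 157). In RKP it was 50.5, 119 and 55.1 CPM. In Krt8 barcodes without a count of Csf3r, Cd68, Cd3e or Pecam1, Ifitm6 stood at 127 CPM in EKP (120.1 to 134) and 38.6 CPM in RKP (35.6 to 41.9), and with any of them at 122 and 116 CPM. So in EKP the level was alike with and without these markers, and in RKP it was 116 against 38.6 CPM. Rsad2 stood at 134 CPM in EKP (127 to 141) and 191 CPM in RKP (184 to 198) without the 4 markers, and at 469.6 and 284 CPM with any of them. This added setting turned the direction of the Rsad2 difference in the Krt8 gate, to a log2 ratio of 0.52 from -0.14.

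The panel genes whose levels ran most like each member were ranked by Pearson's r of log2(CPM + 10) over the 10 points of 5 gates and 2 sections, which share barcodes and libraries. For Ifitm6 these were Asprv1, a retroviral-like protease (r = 0.928), Mrgpra2a, a G protein-coupled receptor (0.901), Gad1, glutamate decarboxylase (0.892), Cd300lf, an inhibitory myeloid receptor (0.869) and Cstdc4, a cystatin-domain protein (0.853). For Rsad2 they were Ltc4s, leukotriene C4 synthase (0.949), the apolipoprotein gene Apoc4 (0.920), which stayed between 4.99 and 20.9 CPM, the gelatinase Mmp9 (0.883), Mmp8 (0.840) and the protease Htra3 (0.837). The 2 members ran together at r = 0.606, rank 53 of 435 for Ifitm6 and rank 60 for Rsad2.

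Barcodes with and without a member were also compared for all other genes, after each barcode was thinned to 40 counts with the member left out. EKP barcodes with Ifitm6 had the highest ratios for Slc34a2, a phosphate transporter (3.56), Cldn2 (3.43), Cxcr2 (3.28), Stfa2l1 (3.15) and Mrgpra2a (3.12). Epithelial and neutrophil genes thus stood side by side there. Within the EKP Krt8 gate the first was Slc34a2 at 4.73 (3.62 to 6.10), and within the EKP Csf3r gate Pglyrp1, a bactericidal granule protein, at 2.40 (2.03 to 2.82). RKP barcodes with Ifitm6 had Cd209a (4.35), Mmp8 (3.91), Stfa2l1 (3.23), the integrin Itgam (2.93) and Alox5ap, which presents arachidonate to lipoxygenase (2.86). The 148 RKP barcodes with 4 or more Ifitm6 counts had the proton pump subunit Atp6v0d2 (6.35), Itgam (5.68), Alox5ap (5.03) and, after Plbd1, Cd68 itself (4.10) at the top.

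RKP barcodes with 4 or more Rsad2 counts had the highest ratios for Cstdc4 (7.31), Stfa2l1 (6.42), Ccl12 (4.80), the platelet and megakaryocyte chemokine Ppbp (4.51), Mmp8 (4.10) and Isg20 (4.01). In EKP such barcodes had Arg1 (3.86), Cstdc4 (3.73), Cd300lf (3.11), the chemokine Ccl9 (2.93) and Epsti1 (2.83) at the top. With 1 or more Rsad2 counts outside the high segments, the first 2 in EKP were Chga, a secretory granule protein (4.95), and Ttn, a muscle protein (4.53), followed by the vessel genes Sox17 (3.07) and Clec14a (2.94). In RKP the first 3 were Cdhr5 (5.32), Ambp (4.92) and Mrgpra2a (4.38), followed by Clec14a (4.32), and Sox17 (3.56) and the VEGF receptor Kdr (3.11) were also among the first 8. In the RKP Krt8 gate the first were B4galnt2, a glycosyltransferase (95% interval 5.10 to 9.45), Cdhr5, a brush-border cadherin (5.24) and Ambp, a plasma protein precursor (4.51).

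The name interferon-induced could be checked on few other genes. Of 63 listed interferon-related genes, 5 were on the panel, namely both members, Isg20, a 3′ to 5′ exonuclease, Ccl12, a monocyte-attracting chemokine, and Cd86, a costimulatory ligand. Epsti1 and Psmb8, the latter an immunoproteasome subunit, were added after the panel was read. Isg20 had a higher level in the Krt8 gate, with 1074 CPM in the EKP Krt8 gate and 395 CPM in the EKP Csf3r gate. Barcodes of the RKP Csf3r gate with Rsad2 had Isg20 at 4.93 times the level of those without (3.91 to 6.17), the highest of 168 genes ranked, and in the EKP Csf3r gate at 1.98 times (1.41 to 2.72). With 4 or more Rsad2 counts, Ccl12 was at 2.71 (2.03 to 3.55) in EKP and 4.80 (3.98 to 5.73) in RKP, Epsti1 at 2.83 and 2.93, Cd86 at 2.78 and 1.82, and Psmb8 at 1.80 and 1.57. Psmb8 was rank 21 of 111 genes in EKP and 34 of 163 in RKP, and Cd86 in RKP rank 28. Within the RKP Csf3r gate Cd86 stood at 0.929 (0.788 to 1.09) beside 1 or more Rsad2 counts.

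The same genes were read beside Ifitm6. With 1 or more Ifitm6 counts Epsti1 was at 1.38 (1.24 to 1.52) in EKP and 1.57 (1.45 to 1.70) in RKP. Isg20 was at 1.27 (1.07 to 1.49) in EKP and 0.831 (0.638 to 1.06) in RKP, and Ccl12 at 1.38 (1.18 to 1.61) and 0.985 (0.778 to 1.23). Cd86 was at 1.12 (0.973 to 1.29) and 1.79 (1.62 to 1.98). At the same threshold of 1 or more Rsad2 counts, Isg20 was at 1.27 (1.10 to 1.45) in EKP and 2.22 (1.99 to 2.48) in RKP, Ccl12 at 2.22 and 2.89, Epsti1 at 1.84 and 2.01, and Cd86 at 1.45 and 1.31. Over all barcodes, Isg20 in EKP was thus alike beside both members, and Cd86 in RKP was higher beside Ifitm6. This differed by gate. In the EKP Csf3r gate Isg20 was at 0.860 (0.513 to 1.36) beside Ifitm6 and 1.98 beside Rsad2, and in the EKP Krt8 gate at 1.29 and 1.23. In the RKP Csf3r gate Cd86 was at 0.859 (0.671 to 1.08) beside Ifitm6 and 0.929 beside Rsad2, and in the RKP Krt8 gate at 2.32 and 1.19.

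**Figure D5:**
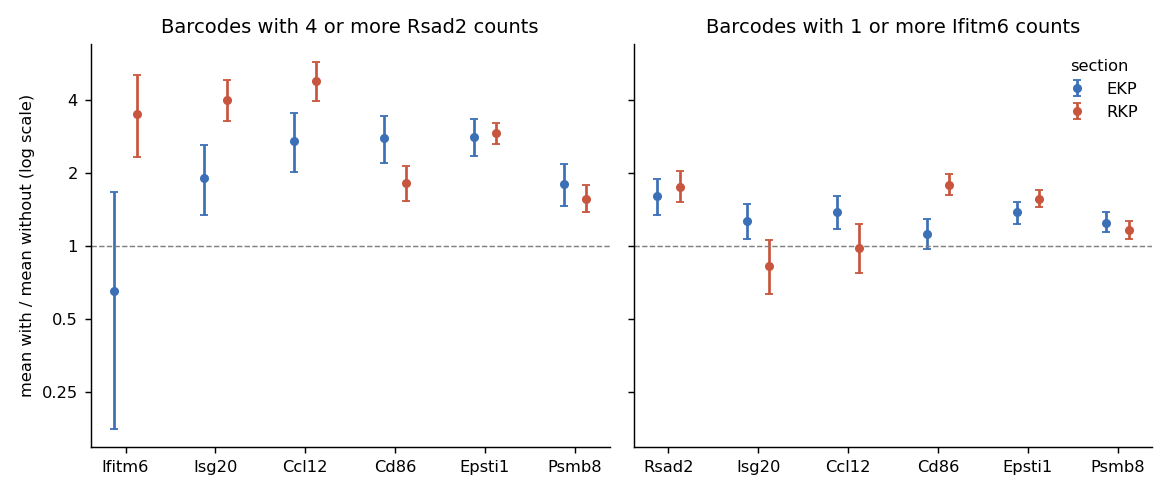
Ratio of mean counts of interferon-related panel genes between barcodes with 4 or more Rsad2 counts (left) or 1 or more Ifitm6 counts (right) and barcodes without that gene, after thinning to 40 counts, on a log axis with exact 95% intervals; the dashed line marks equal means. Isg20 and Ccl12 lie at 4.01 and 4.80 beside 4 or more Rsad2 counts in RKP, and at 0.831 and 0.985 beside 1 or more Ifitm6 counts in RKP. The thresholds of the 2 panels differ, and at 1 or more Rsad2 counts, not drawn, the RKP values are 2.22 and 2.89.

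These genes were also read in the high segments, where the choice of the segments fixes that Rsad2 is high. In the RKP Csf3r gate the ratio of inside to outside was 7.28 for Rsad2, 1.92 (1.70 to 2.15) for Isg20, 1.16 (1.09 to 1.23) for Ccl12, 1.09 (1.05 to 1.13) for Epsti1, 1.03 (0.994 to 1.08) for Psmb8 and 0.940 (0.900 to 0.982) for Cd86. In the EKP Csf3r gate it was 5.02 for Rsad2, 1.39 (1.29 to 1.49) for Ccl12, 1.35 for Epsti1, 1.35 for Psmb8, 1.18 (0.998 to 1.39) for Isg20 and 1.04 for Cd86. In the EKP Krt8 gate, where Rsad2 was at 7.08, Psmb8 was at 0.481 (0.466 to 0.496) and Epsti1 at 0.852 (0.813 to 0.893). Between the sections these genes also differed in direction in the Csf3r gate, with RKP over EKP at 0.810 for Isg20, 0.669 for Ccl12, 1.40 for Cd86, 1.13 for Epsti1 and 1.25 for Psmb8.

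The 2 members met in few barcodes. After thinning to 40 counts, 53 EKP and 43 RKP barcodes held both, where the product of the 2 shares gives 20.5 in each, so that both were seen together 2.59 times (1.94 to 3.39) and 2.10 times (1.52 to 2.82) as often as that product. Within the Csf3r gate the same ratio was 1.76 (1.10 to 2.66) in EKP and 1.91 (1.27 to 2.76) in RKP. In the Krt8 gate 3 EKP and 5 RKP barcodes held both, where 3.06 and 2.52 follow from the shares. Before thinning, 222 EKP and 221 RKP barcodes held both, 3.77% and 2.65% of those with Rsad2.

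Depth moved with both genes. Over all barcodes Ifitm6 stood at 1263 CPM in EKP barcodes with under 20 counts and at 113 CPM in those with 320 or more, and Rsad2 at 2507 and 185 CPM. In RKP Ifitm6 stood at 541 and 85.3 CPM, and Rsad2 at 16315 and 193 CPM. In the Csf3r gate, Rsad2 in RKP barcodes with 40 to 79 counts reached 3679 CPM (3515 to 3849), against 1459 CPM (1351 to 1573) in EKP. At 320 or more counts the order by CPM was reversed, with 439.6 CPM (369 to 520.3) in RKP and 748 CPM (646 to 863) in EKP. That EKP level rested on 190 counts in 46 of 676 barcodes. By share of barcodes with Rsad2 the sections had overlapping intervals at this depth, 6.80% (5.02 to 8.97) in EKP and 6.33% (4.76 to 8.21) in RKP. Thinned to 40 counts, 2.37% of EKP and 3.86% of RKP Csf3r barcodes held Rsad2, and unthinned 4.77% and 6.35%, at a median depth of 110.0 counts in both. For Ifitm6 the thinned shares were 2.14% and 1.36%, and unthinned 4.62% and 3.03%. In the Krt8 gate the thinned shares were 0.488% and 0.260% for Ifitm6. The part of depth in the differences between gates was not tested beyond these values.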

How the data were processed

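Transcripts were counted in place on 1 Xenium slide with a panel of 379 genes and 100 added ones. The deposited values are whole-number counts per gene and barcode, with 20 negative control probes and 41 negative control codewords listed apart and left out of all totals. Per the submitters' processing notes, Seurat 4.4.0 was used. The segmentation of cells and any barcode filter were not given in the sources used here. No doublets were removed, and counts were used as deposited by the authors.

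Samples were grouped by title (EKP, RKP; 1 section each), so there is no replicate and no test. Levels are summed counts of a gene per 1000000 gene counts (CPM). Gates required 40 or more gene counts, as described in the report. Thinning drew 40 counts per barcode without replacement (seed 20240601); barcodes with fewer after a member was left out were dropped. A CPM of 10 was added before log2 for likeness. Intervals were computed with scipy 1.17.1 (95% level), tables with numpy 2.4.6 and pandas 2.3.3, and figures with matplotlib 3.10.9, in Python 3.11.15.

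Genes named beside the members came from a rule: the panel members of an interferon list, the 5 genes most like each member over gates, and for each member and section the 8 genes with the highest ratio between barcodes with and without it, with 50 or more counts. The members and lists were chosen with earlier results of these data known. The count threshold of 4, the 3-fold threshold, the high Rsad2 segments, the splits by Stfa2l1, Mmp8 in the Csf3r gate, F13a1, Ly6g and Cd209a, and Epsti1 and Psmb8 were added after values or the panel had been seen; 1 further split is not reported here.

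The ratio of sections was tested on simulated data for 479 genes in the Csf3r gate with 2-fold changes in 200 of them: 94.6% of the intervals held the true ratio. The simulated counts were independent Poisson draws, without the concentration of Rsad2 counts in few barcodes. This checks the computation alone, not whether the intervals are wide enough for these data. The alternatives tried were other count filters, thinning, means per barcode, stricter markers, exclusive gates, another reading of the Epcam limit, and 3 added ones on file segments and the Krt8 gate. Protein sequences were not used here.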

Additional observations from a re-analysis of the deposited data

Results flagged for a closer look

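Ifitm6 in the Pecam1 gate, set against the Krt8 gate of the same section, went opposite ways in the 2 sections, at 0.772 in EKP (0.685 to 0.868) and 1.39 in RKP (1.22 to 1.57). With 1 section per line, this difference was not tested. In barcodes of exactly 1 gate the opposite direction was lost, with 47.5 CPM in the Pecam1 gate and 129.9 CPM in the Krt8 gate in EKP, and 60.0 CPM (46.8 to 75.6) and 71.9 CPM (68.5 to 75.4) in RKP. The Krt8 gate level differed more between the sections, 125 against 71.9 CPM, than the Pecam1 gate level, 96.5 against 99.8 CPM.

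Barcodes with under 40 gene counts, which no gate used, also carried both genes. Ifitm6 stood at 1072 CPM there in EKP (1019.9 to 1125) and 425 CPM in RKP (369 to 488). Rsad2 stood at 2338 CPM in EKP (2261 to 2416) and 7972 CPM in RKP (7721 to 8229.6). The highest negative control probe in the same barcodes reached 124 CPM in EKP, and the mean of these probes was 27.7 CPM in EKP and 3.14 CPM in RKP. Of these shallow Rsad2 counts in RKP, 92.6% lay in file segments 5 to 7, where the level was 24857 CPM, against 839.8 CPM in the other segments. In EKP 28.1% lay in segments 1 and 2, at 3506 CPM against 2068 CPM elsewhere. Ifitm6 in the shallow RKP barcodes stood at 416 CPM inside segments 5 to 7 and 429 CPM outside. In the 266 shallow RKP barcodes with 4 or more Rsad2 counts, Rsad2 made up a median of 19.2% of all gene counts. In the 61 such EKP barcodes it made up 18.5%. A high share follows in part from asking for 4 or more Rsad2 counts among fewer than 40.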

How the results depend on the processing

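No paired analysis was possible because each line has 1 section. Of 96 values of the log2 ratio of RKP over EKP under other settings, 43 stayed within the counting interval of the reported value, 45 left it and 8 changed sign from a reported value whose interval excludes 0. Among the 43 and 45, 11 values, all of Ifitm6 in the Cd68, Cd3e and Pecam1 gates, changed sign from a reported value whose interval spans 0, so 19 did in all. All values here are such log2 ratios, and causes were not tested. The high Rsad2 segments were chosen on Rsad2, so a lower level of it over the whole section without them follows from that choice. Without the high Rsad2 segments (added after seeing the data), Rsad2 stood at -0.42 in the whole section, 0.04 in the Csf3r gate, -0.03 in Cd68, -0.84 in Cd3e, 0.44 in Pecam1 and 0.69 in Krt8, against 0.14, 0.99, 0.40, -0.42, 0.74 and -0.14. By the median of 10 file segments (added), Rsad2 stood at -0.01 in the whole section, 0.14 in Csf3r, -0.05 in Cd68, 0.57 in Pecam1 and 0.90 in Krt8, and Ifitm6 at -0.82 in the whole section, -0.63 in Csf3r, 0.07 in Cd68, 0.33 in Pecam1 and -0.50 in Krt8. With the Epcam limit in the Pecam1 gate alone, Rsad2 stood at 0.44 in Csf3r and -0.12 in Cd68, and Ifitm6 at 0.05 in Cd68. In the Krt8 gate without the other 4 markers (added), Ifitm6 stood at -1.71 and Rsad2 at 0.52. With 40 or more counts, the whole section gave -0.40 for Ifitm6 and 0.20 for Rsad2, and as mean counts per barcode -0.18 and 0.65; that mean also moved Rsad2 to 0.48 in Cd68 and 0.63 in Pecam1. With 20 or more counts Rsad2 stood at 0.46 in Cd68. With 80 or more counts Rsad2 stood at 0.83 in Csf3r and 0.25 in Cd68, and Ifitm6 at -0.30 and 0.06. Thinned to 40 counts, Ifitm6 stood at -0.60 in Csf3r, -0.38 in Cd68, -0.46 in Pecam1 and -0.89 in Krt8, and Rsad2 at 1.20, 0.66, 0.83 and -0.20. With 2 or more marker counts (Krt8: 6 or more), Ifitm6 stood at -0.61 in Csf3r, 0.23 in Cd68 and -1.11 in Krt8, and Rsad2 at 1.12, 0.24, 0.60 in Pecam1 and -0.06 in Krt8. In barcodes of exactly 1 gate, Ifitm6 stood at -0.84 in Csf3r, 0.24 in Cd68 and 0.34 in Pecam1, and Rsad2 at 1.13 in Csf3r, -0.86 in Cd3e and 0.60 in Pecam1. The Ifitm6 ratio in the Cd3e gate rests on 49 EKP counts and its interval spans 0, so no difference was detectable at this depth.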
